A study of Mus musculus with 12 samples.

Results

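Ucp1 and 9 genes that regulate or accompany its expression in brown fat were followed through the RNAseq data: Ppargc1a, Ppargc1b, Prdm16, Dio2, Elovl3, Cidea, Kcnk3, Esrra and Esrrg. Their rows were taken by gene symbol, and all 10 were found among the 48321 genes listed. The set was named with earlier results of these data known. The data came from 12 libraries of murine adipocytes, 3 in each of 4 groups. The cells were brown preadipocytes of interscapular brown fat from a newborn wild-type C57BL/6J mouse, immortalized with the SV40 large T antigen and differentiated for 8 days. In the authors' protocol the differentiation medium held isobutyl methylxanthine, rosiglitazone, dexamethasone, insulin and the thyroid hormone triiodothyronine. The maintenance medium that followed kept insulin and triiodothyronine. All 4 groups carried a lentiviral pLEX construct and had been selected with puromycin: the control line held the empty vector, and the other line held tSema4B, a truncated, soluble form of Sema4B. Each line was either left unstimulated or given 2 µM norepinephrine (NE) for 6 h in serum-free medium with albumin, so the groups are vector, tSema4B, vector NE and tSema4B NE. No more than 1 stable line per construct is described, and by the labels the 3 libraries in a group are technical replicates. A difference between tSema4B and vector is therefore a difference between these 2 lines, and the p-values cover only the spread between these libraries.

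Brown adipocytes release heat by running the respiratory chain with Ucp1, the mitochondrial carrier that lets protons return to the matrix without making ATP. Norepinephrine from sympathetic nerves reaches them through beta-adrenergic receptors, raises cAMP and activates protein kinase A, which drives both lipolysis and the transcription of Ucp1. The coactivators PGC-1α and PGC-1β (Ppargc1a and Ppargc1b) work with the oestrogen-related receptors (Esrra and Esrrg) on mitochondrial genes, Prdm16 is a coregulator of brown fat identity, and type 2 deiodinase (Dio2) makes active thyroid hormone inside the cell. Elovl3, Cidea and Kcnk3 are used as brown fat markers.

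Promoter sequence is shown for 3 of these genes because CREB, the transcription factor activated through protein kinase A, binds the cAMP response element TGACGTCA and its core TGACG. RefSeq windows of GRCm38.p6 were available for 6 of the 10 genes (Ucp1, Ppargc1a, Prdm16, Dio2, Esrra and Esrrg, the last with 4 start sites) and not for Ppargc1b, Elovl3, Cidea and Kcnk3. The 250 bases before each start were searched on both strands. The full element TGACGTCA was found in 1.55% of 32851 such windows, and of the 6 genes only the Dio2 window held it. The core TGACG, which also lies inside the full element on each strand, was found in 17.8% of the windows. It occurred in the windows of 3 of the 6 genes, and these are printed 5′ to 3′ with the core or the full element in capitals.
Ucp1 (chr8:83290098-83290347, plus strand): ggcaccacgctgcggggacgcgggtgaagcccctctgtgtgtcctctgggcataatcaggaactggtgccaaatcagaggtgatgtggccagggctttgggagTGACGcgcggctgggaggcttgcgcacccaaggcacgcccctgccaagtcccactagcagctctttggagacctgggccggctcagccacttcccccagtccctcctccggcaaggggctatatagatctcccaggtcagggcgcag
Ppargc1a (chr5:51567726-51567975, minus strand): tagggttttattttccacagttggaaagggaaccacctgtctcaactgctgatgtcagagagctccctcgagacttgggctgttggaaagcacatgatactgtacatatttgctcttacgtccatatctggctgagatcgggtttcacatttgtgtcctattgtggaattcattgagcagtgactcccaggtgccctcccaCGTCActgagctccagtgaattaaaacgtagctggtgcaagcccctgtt
Dio2 (chr12:90739039-90739288, minus strand): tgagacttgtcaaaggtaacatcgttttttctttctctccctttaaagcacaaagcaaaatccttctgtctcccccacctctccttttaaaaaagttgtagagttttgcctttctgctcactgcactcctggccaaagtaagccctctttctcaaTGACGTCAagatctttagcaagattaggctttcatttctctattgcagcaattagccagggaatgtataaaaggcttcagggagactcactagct
The core begins 147 bases before the start in Ucp1. In Ppargc1a it is read on the opposite strand, 49 to 45 bases before the start, and the full element of Dio2 lies 95 to 88 bases before it. A match is a description of these letters and not a measured site. Of the 3 genes with a match, Ucp1 rose with NE, Ppargc1a did not pass the test and Dio2 had no read, as the values that follow show.

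The deposited values are normalized counts, that is, the reads of a gene divided by a size factor of its library. Whole reads were recovered from them, and 1 read was worth between 0.593 and 1.55 normalized counts. Between 2000780 and 5409583 reads per library fell on genes, with more in the vector than in the tSema4B libraries both before and after NE. Of the 48321 genes, 11998 had at least 10 normalized counts in at least 3 libraries and were tested with limma on log2(normalized count + 1). Fold changes on this scale understate the change of low genes. Called genes had a Benjamini-Hochberg adjusted p, over all tested genes, that did not exceed 0.05, together with a change of 1 log2 unit or more. For 3 against 3 libraries the smallest exact permutation p is 0.1, and the adjusted p-values therefore lean on the spread pooled across genes by limma. Sema4b, the transduced gene, had 110786 to 124008 normalized counts in vector, 258257 to 316850 in tSema4B, 65473 to 81754 in vector NE and 208760 to 270694 in tSema4B NE. Its level was thus high in the empty-vector line too. With limma tSema4B was higher by 1.27 log2 units without stimulation and by 1.65 after NE. Reads of the construct and of the endogenous gene were not told apart.

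Read support was thin for most of the 10 genes. Over all 12 libraries Ucp1 had 1506 reads, Elovl3 654, Cidea 442, Prdm16 250, Ppargc1a 244, Ppargc1b 218, Kcnk3 180, Esrra 141, Esrrg 62 and Dio2 none. The test filter was passed by 8 genes, and Dio2 and Esrrg were not tested. Kcnk3 passed it through the vector groups alone. Ucp1, Elovl3 and Cidea reached 10 normalized counts in a library of every group except unstimulated tSema4B, Cidea in only 1 tSema4B NE library. Ppargc1b reached that level in no tSema4B NE library. A gene that is low in the tSema4B line could thus enter the test only through the groups in which it is high.

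**Figure D1:**
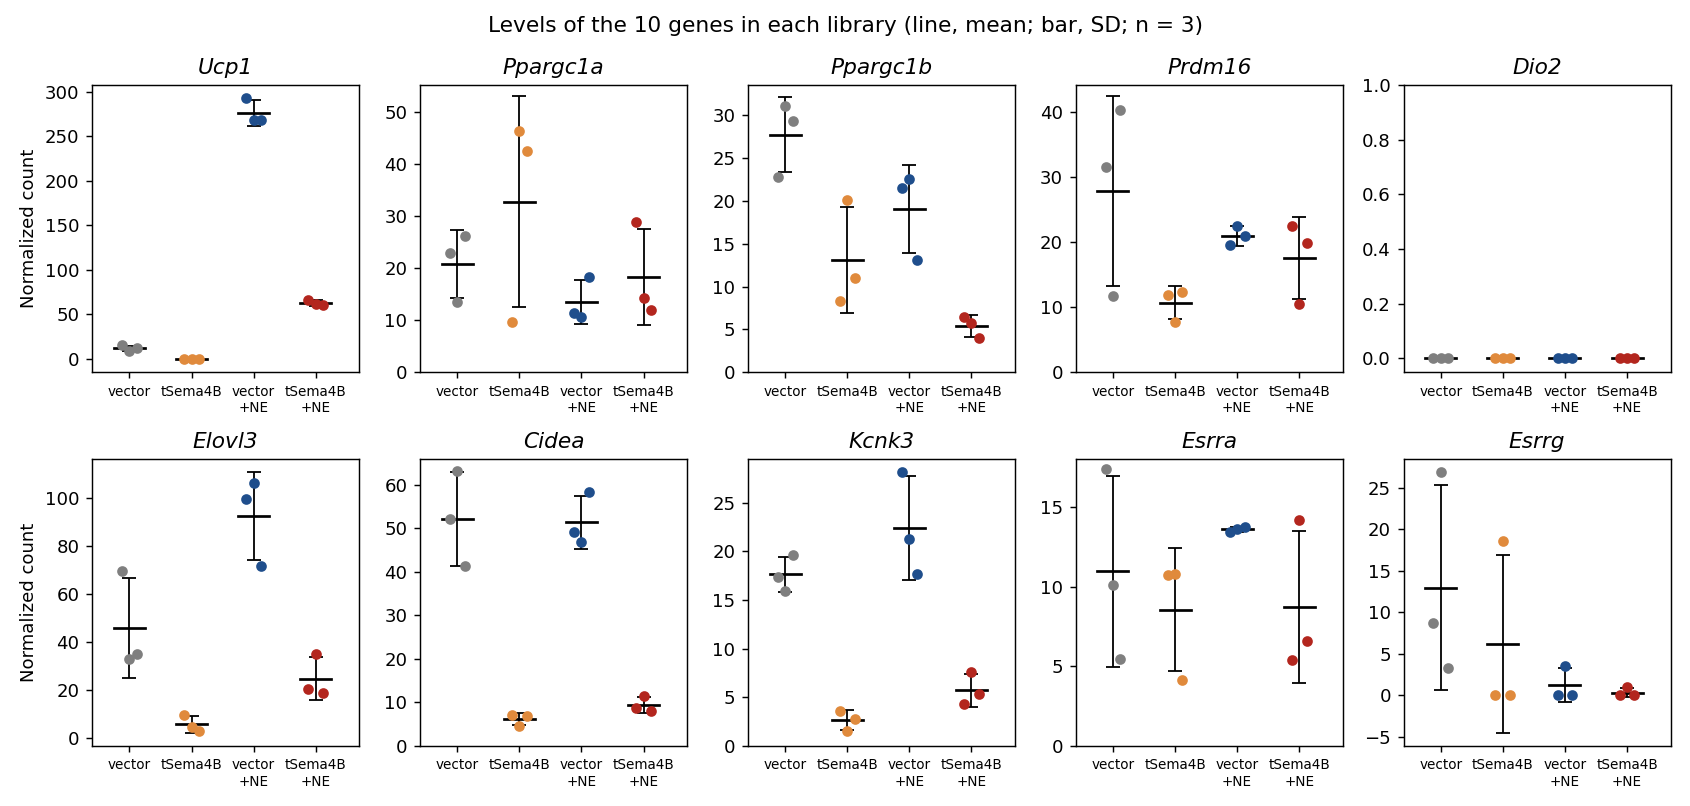
Normalized count (vertical axis, linear) of each of the 10 genes in the 12 libraries, by group. Points are libraries, lines are group means and bars are SD (n = 3). Ucp1 lies between 267.8 and 293.0 in vector NE and between 60.8 and 66.5 in tSema4B NE, Dio2 is at 0 throughout, and the Esrrg points spread from 0 to 26.9.

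In the unstimulated state the tSema4B line held less mRNA than the vector line for Ucp1 and for the 3 brown fat markers Elovl3, Cidea and Kcnk3. Elovl3 and Cidea differed by 7.60- and 8.41-fold, Kcnk3 had only 1 to 3 reads per tSema4B library, and Ucp1 had none. The coactivators and receptors (Ppargc1a, Ppargc1b, Prdm16 and Esrra) did not pass the test.

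Ucp1 (ENSMUSG00000031710.4, chromosome 8, 83290352 to 83298452, GRCm38) had 15.2, 9.25 and 12.0 normalized counts in the 3 vector libraries, from 14, 11 and 11 reads. All 3 tSema4B libraries had 0 reads. The groups did not overlap, and the level in tSema4B was at least 2.96-fold lower, with 3 reads per library as the floor. This bound covers counting error only, since PCR copies of a molecule are not counted apart. With limma the adjusted p was 1.48e-07, and the fitted log2 fold change of -3.69 depends on the pseudocount because a group is at 0. Fewer cells of a type and less RNA per cell cannot be told apart in these bulk samples.

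Elovl3, which elongates very long chain fatty acids, had 69.5, 32.8 and 34.9 normalized counts in vector (64, 39 and 32 reads) and 9.53, 4.64 and 2.74 in tSema4B (8, 3 and 2 reads). The highest tSema4B library was below the lowest vector library. From the summed reads the level was 7.60-fold lower in tSema4B (95% interval 4.30 to 14.6, counting error only), and with limma the log2 fold change was -2.86 (SE 0.42, adjusted p = 3.81e-05).

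Cidea, a lipid droplet protein, had 52.1, 63.1 and 41.4 normalized counts in vector (48, 75 and 38 reads) and 7.15, 4.64 and 6.85 in tSema4B (6, 3 and 5 reads). These groups were also fully apart. The summed reads gave an 8.41-fold lower level (95% interval 4.87 to 15.7), and limma a difference of -2.88 on the log2 scale (SE 0.38, adjusted p = 9.92e-06).

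Kcnk3, a tandem-pore potassium channel also called TASK1, had 17.4, 16.0 and 19.6 normalized counts in vector (16, 19 and 18 reads). In tSema4B it had 3.58, 1.55 and 2.74, which rest on 3, 1 and 2 reads. The channel was lower in every tSema4B library, and none of these exceeds the floor of 3 reads used for Ucp1. The ratio of summed reads, 6.46-fold, is therefore uncertain (95% interval 2.78 to 18.4) and rests on 6 reads in all on the low side. The log2 fold change by limma was -2.40 (SE 0.52, adjusted p = 0.00293). Kcnk3 entered the test only through the vector groups, in which it is high, so this p-value is no separate support.

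The coactivator Ppargc1b had 22.8, 31.1 and 29.4 normalized counts in vector and 8.34, 20.1 and 10.9 in tSema4B. The groups did not overlap, and the summed reads gave a 2.22-fold lower level (95% interval 1.43 to 3.54). The difference did not pass the adjusted test (limma log2 fold change -1.10, SE 0.46, 95% interval -2.06 to -0.14, adjusted p = 0.128). Prdm16 had 31.5, 11.8 and 40.3 in vector and 11.9, 7.73 and 12.3 in tSema4B, so the second vector library fell within the tSema4B range. The fit by limma gave -1.17 on the log2 scale (SE 0.47, adjusted p = 0.106), and without that library it was -1.68 with an adjusted p of 0.028 by limma.

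Ppargc1a, the coactivator that responds to adrenergic stimulation in brown fat, was the gene whose mean was higher in tSema4B, and its groups overlapped widely. It had 22.8, 13.5 and 26.1 normalized counts in vector and 9.53, 46.4 and 42.4 in tSema4B. The limma log2 fold change was 0.41 with a 95% interval from -0.68 to 1.49 (adjusted p = 0.682), an interval that leaves a lower or a higher level possible. Removing a single library gave 0.023 to 1.11 (adjusted p = 0.151 to 0.987), the higher value without the first tSema4B library. The nuclear receptor Esrra had 5.45 to 17.4 in vector and 4.11 to 10.8 in tSema4B (log2 fold change -0.30, 95% interval -1.48 to 0.89, adjusted p = 0.798).

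Of the 8 tested genes 4 were called lower in tSema4B, where 2.71% of all 11998 tested genes were called lower and 1.11% higher. These 4 reached the filter in no unstimulated tSema4B library and were tested through groups in which they are higher. Their count is therefore not a test of the set. For 5 of the 8 the libraries of both lines did not overlap, as they did not for 29.4% of all tested genes. The median log2 fold change over all tested genes was -0.0025.

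After NE the tSema4B line was again lower in Ucp1, Elovl3, Cidea and Kcnk3, and Ppargc1b joined the called genes. Ucp1 differed 4.38-fold between the stimulated lines. Prdm16, Ppargc1a and Esrra again did not pass the test.

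Ucp1 had 293.0, 267.9 and 267.8 normalized counts in vector NE (436, 452 and 409 reads) and 66.5, 61.5 and 60.8 in tSema4B NE (62, 65 and 46 reads). The 2 groups lay far apart. The summed reads gave a 4.38-fold lower level in tSema4B NE (95% interval 3.73 to 5.16), and limma a difference of -2.12 on the log2 scale (SE 0.36, adjusted p = 0.000189).

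Elovl3 had 99.4, 106.1 and 71.4 normalized counts in vector NE and 20.4, 35.0 and 18.5 in tSema4B NE. It was 3.64-fold lower by summed reads (95% interval 2.82 to 4.75), with a log2 fold change of -1.90 by limma (SE 0.42, adjusted p = 0.00222). Cidea had 49.0, 46.8 and 58.3 in vector NE and 8.58, 11.4 and 7.93 in tSema4B NE. It was 5.41-fold lower (95% interval 3.60 to 8.45; limma log2 fold change -2.36, SE 0.38, adjusted p = 9.46e-05). In neither gene did the lines overlap.

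Kcnk3 had 28.2, 21.3 and 17.7 normalized counts in vector NE and 4.29, 7.57 and 5.29 in tSema4B NE, the latter from 4, 8 and 4 reads. It was 3.83-fold lower by summed reads (95% interval 2.25 to 6.95), with a limma log2 fold change of -1.81 (SE 0.52, adjusted p = 0.0162). Ppargc1b had 21.5, 22.5 and 13.1 in vector NE and 6.43, 5.68 and 3.96 in tSema4B NE, the latter from 6, 6 and 3 reads. It was 3.50-fold lower (95% interval 2.01 to 6.52; limma log2 fold change -1.64, SE 0.46, adjusted p = 0.0142). Both of these calls were lost without either of 2 vector NE libraries. Without the first the adjusted p by limma was 0.0886 for Kcnk3 and 0.0634 for Ppargc1b, and without the second it was 0.055 and 0.0698. Whichever of the 6 libraries was removed, the difference on the log2 scale stayed between -1.997 and -1.634 for Kcnk3 and between -1.875 and -1.471 for Ppargc1b.

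Prdm16 had 19.5, 22.5 and 21.0 normalized counts in vector NE and 22.5, 10.4 and 19.8 in tSema4B NE, and these groups overlapped (log2 fold change -0.31, 95% interval -1.28 to 0.66, adjusted p = 0.694 by limma). Ppargc1a had 11.4, 10.7 and 18.3 in vector NE and 29.0, 14.2 and 11.9 in tSema4B NE (log2 fold change 0.36, 95% interval -0.73 to 1.44, adjusted p = 0.682). Esrra had 13.4 to 13.7 in vector NE and 5.36 to 14.2 in tSema4B NE (log2 fold change -0.69, 95% interval -1.88 to 0.49, adjusted p = 0.427). Each of these intervals spans a fold of 2 or more on at least the lower or the upper side, so the data do not show that the lines were alike.

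Over the stimulated groups 5 of the 8 tested genes were called lower in tSema4B, against 3.73% of all tested genes called lower and 2.03% called higher. Of the 5, Kcnk3 and Ppargc1b reached the filter in no tSema4B NE library and entered the test through groups in which they are higher. The lines were fully apart in 5 of the 8 and in 37.7% of all tested genes. The median of all tested genes was -0.010. Scaling the libraries to the same total moved the calls over all genes from 244 higher and 447 lower to 346 higher and 362 lower, and left 5 of the 8 genes called. With a library left out, 3 to 5 of the 8 were called, through the losses given above for Kcnk3 and Ppargc1b. The calls of these genes were also lost without a filter.

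**Figure D2:**
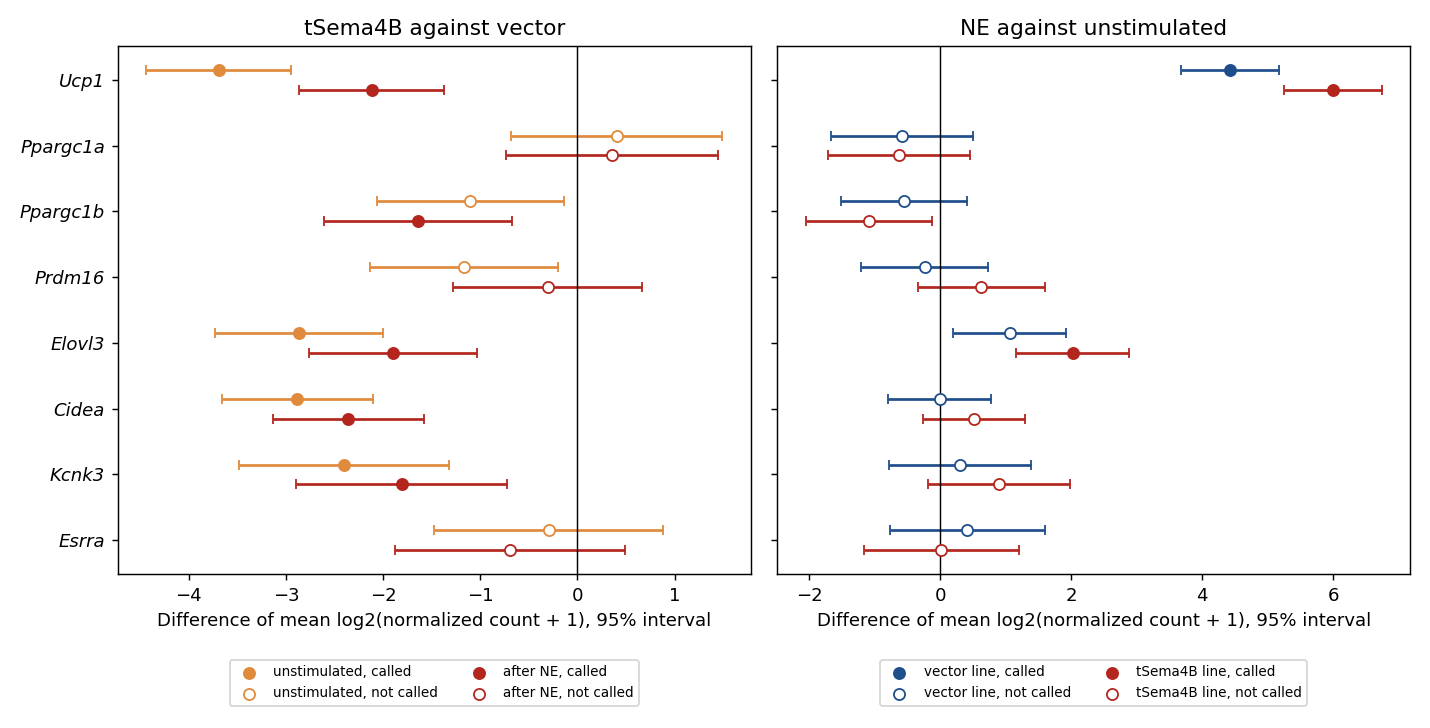
Difference in mean log2(normalized count + 1) with its 95% interval from limma (horizontal axis) for the 8 tested genes, tSema4B against vector on the left and NE against unstimulated on the right. Filled points were called and open points were not. Ucp1 stands at -3.69 and -2.12 on the left and at 4.42 and 6.00 on the right, and most intervals of Ppargc1a, Prdm16 and Esrra cross 0.

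NE raised Ucp1 in both lines. Elovl3 was called higher in tSema4B and missed the call in vector, and the interaction, given further on, was not called for it. The other tested genes, the coactivator Ppargc1a among them, did not pass the test in either line after 6 h of NE. The NE comparisons share their unstimulated and stimulated groups with the comparisons between the lines, so they are not independent of them.

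In the vector line Ucp1 went from a mean of 12.1 ± 2.98 to 276 ± 14.5 normalized counts (SD, n = 3). The summed reads gave a 23.2-fold higher level after NE (95% interval 16.7 to 33.3), and the limma log2 fold change was 4.42 (SE 0.36, adjusted p = 3.79e-08). In the tSema4B line Ucp1 went from 0 reads to a mean of 62.9 ± 3.10, at least 15.3-fold higher with 3 reads per library as the floor (limma adjusted p = 8.46e-10). Across the 4 groups the Ucp1 levels were thus ordered vector NE, tSema4B NE, vector and tSema4B, and neighbours in this order did not overlap.

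Elovl3 rose in the tSema4B line from a mean of 5.64 ± 3.51 to 24.6 ± 9.05, which was 4.35-fold by summed reads (95% interval 2.38 to 8.56; limma log2 fold change 2.03, SE 0.42, adjusted p = 0.00376). With only the 6 libraries compared in the fit the adjusted p was 0.0842. In the vector line its mean went from 45.7 ± 20.6 to 92.3 ± 18.4, and all 3 vector NE libraries were above the unstimulated ones. That difference missed the call with limma (log2 fold change 1.06, SE 0.42, adjusted p = 0.108), while edgeR on the recovered reads gave 1.03 with an adjusted p of 0.033 and DESeq2 1.02 with 0.0345.

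Ppargc1a was lower after NE in both lines without passing the test (limma log2 fold change -0.58, 95% interval -1.67 to 0.51, adjusted p = 0.56 in vector; -0.63, -1.72 to 0.46, adjusted p = 0.557 in tSema4B). Ppargc1b also lay lower after NE, with no overlap between libraries in either line, and did not pass (log2 fold change -0.55, adjusted p = 0.528 in vector; -1.09, adjusted p = 0.186 in tSema4B). Cidea had a log2 fold change of -0.0080 in vector (95% interval -0.79 to 0.77) and 0.52 in tSema4B (-0.26 to 1.30). Kcnk3 had 0.31 (-0.78 to 1.39) and 0.90 (-0.18 to 1.99). In tSema4B the NE libraries of both genes lay above the unstimulated ones, at 4 to 12 reads per library against 1 to 6. Prdm16 had -0.23 and 0.63 and Esrra 0.42 and 0.018, with overlap in both lines.

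With NE 1 of the 8 tested genes was called higher in vector, where 1.66% of all tested genes were called higher and 0.975% lower. In the tSema4B line 2 of the 8 were called higher, against 1.31% higher and 0.758% lower among all tested genes. The unstimulated and NE libraries did not overlap in 3 of the 8 genes in vector (33.3% of all tested genes) and in 5 of the 8 in tSema4B (20.7% of all tested genes). The medians of all tested genes were -0.019 and -0.0048.

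Whether the NE response differed between the lines was tested by the interaction of line and NE. None of the 8 tested genes passed (0 by limma, 0 by edgeR and 0 by DESeq2), while 3 of all 11998 tested genes, 0.025%, were called by limma at the adjusted p alone. At an unadjusted p under 0.05 there was 1, Ucp1, with a fitted interaction of 1.58 (SE 0.51, adjusted p = 0.259). This value cannot be read as a larger response of tSema4B, since the unstimulated group is at 0 reads: it was 4.54 with edgeR and -0.83 with a pseudocount of 10. For the other 7 genes the interaction lay between -0.54 and 0.96.

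Dio2, the type 2 deiodinase (chromosome 12, 90724552 to 90738438), had 0 reads in all 12 libraries, also after NE. With 3 reads as the limit that a count of 0 allows, levels of up to 1.78 to 4.64 normalized counts, depending on the library, would not have been detectable. Esrrg, the other receptor of the pair (chromosome 1, 187608791 to 188214885), had 8, 32 and 3 reads in vector, 0, 12 and 0 in tSema4B, 0, 6 and 0 in vector NE and 0, 1 and 0 in tSema4B NE. The second library of each group held the most reads of its group, and the 8 and 3 reads of unstimulated vector were the only ones outside these second libraries. The paralogue Esrrb had no read.

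Compared per kilobase of exon, the levels of the 10 genes had a different order in each group. In unstimulated vector Cidea led with 46.8 ± 9.72 normalized counts per kb, followed by Elovl3 with 23.1 ± 10.4, Ucp1 with 7.42 ± 1.82, Ppargc1b with 6.96 ± 1.10 and Kcnk3 with 4.44 ± 0.46. Ucp1 and Ppargc1b, neighbours in this order, did not differ beyond their SD. In vector NE Ucp1 led with 169 ± 8.86, above Elovl3 with 46.7 ± 9.33 and Cidea with 46.1 ± 5.44, which were within each other's SD. In tSema4B NE the order at the top was the same, with 38.5 ± 1.89, 12.5 ± 4.58 and 8.33 ± 1.64. In unstimulated tSema4B Cidea had the highest mean, 5.57 ± 1.23, and Ppargc1a followed with 4.97 ± 3.07, a value whose SD covers those of Ppargc1b (3.29 ± 1.55) and Elovl3 (2.85 ± 1.78).

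The remaining positions on GRCm38 are chromosome 19 for Elovl3 (46131897 to 46135694) and Esrra (6910977 to 6921813), chromosome 18 for Cidea (67343604 to 67367785) and Ppargc1b (61298136 to 61400431), chromosome 5 for Kcnk3 (30588170 to 30625271) and Ppargc1a (51454250 to 51567726), and chromosome 4 for Prdm16 (154316125 to 154636873). Exons of other genes covered 5.76% of the exon bases of Kcnk3, 3.74% of Esrra, 1.72% of Dio2, 1.17% of Prdm16 and 0.506% of Elovl3. Reads in these stretches cannot be assigned with certainty. The strand setting of the counting is not given in the sources used here, and 91 of the 164 shared bases of Esrra overlap Mir6990 on the same strand, where strand would not separate them.

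General adipocyte markers moved with these differences. Of 8 markers (Adipoq, Plin1, Fabp4, Lipe, Retn, Cfd, Lep and Cd36) 7 were tested, and all 7 were called lower in tSema4B in both conditions, with median log2 fold changes of -2.49 and -2.29. The call of Lipe after NE was lost with equal library totals. The summed level of the 8 was 34633 to 39257 normalized counts in vector, 5142 to 7553 in tSema4B, 47082 to 58521 in vector NE and 7321 to 8481 in tSema4B NE. The 9 preadipocyte and fibroblast markers summed to 3500 to 3737, 4945 to 5741, 2731 to 2825 and 4576 to 4852 in the same groups, and 1 of the 7 tested, Fap, was called higher in tSema4B in both conditions. Their part in the results for Ucp1 and its regulators was not tested. Of the 9 skeletal muscle markers 7 had no read, among them Pax7, Myf5, Myod1 and Myog, and of the 2 tested Acta1 was called lower in tSema4B in both conditions. Adgre1 and Ptprc of the 6 macrophage markers and Kdr of the 5 endothelial markers were at 0, and the summed levels of these 2 lists did not exceed 24.6 in any library. With NE the macrophage receptor Csf1r was called higher in both lines (2.43 and 3.00). Zic1, a transcription factor that marks interscapular brown fat, had at most 7 reads in a library, all in the vector line, and was not tested. It is a single gene of the 18 brown fat factors taken up further on. Of these 15 were tested, among them Ebf2, Tbx15, Lhx8 and Zfp516.

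To place the 8 tested genes beside an adipocyte marker, each was divided by Adipoq in the same library, a measure chosen after the data were seen. Adipoq itself had means of 2458 ± 297 in vector, 436 ± 35.3 in tSema4B, 2443 ± 364 in vector NE and 498 ± 48.8 in tSema4B NE. On this scale most genes are higher in tSema4B because the divisor is lower there: the libraries were fully apart with tSema4B above in 95.3% of all tested genes without stimulation and in 94% after NE, and with tSema4B below in 0.267% and 0.217%. The median ratio of tSema4B to vector over all genes with a value was 5.64 and 4.89.

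Ucp1 after NE had 115 ± 24.4 per 1000 normalized counts of Adipoq in vector and 127 ± 5.93 in tSema4B, and the groups overlapped. Without stimulation it had 4.89 ± 0.65 in vector and 0 in tSema4B. Set against the sum of the 8 adipocyte markers, stimulated Ucp1 was 5.22 ± 0.88 per 1000 in vector and 7.96 ± 0.30 in tSema4B, with every tSema4B library above the vector libraries, so the position of the lines depended on the divisor. The sum is of normalized counts, so its most abundant markers set it, and Adipoq is a small part of it. With NE in vector the sum rose, while 4 of the 7 tested markers had negative fold changes and 3 positive ones (list median -0.013). Elovl3 and Kcnk3 overlapped between the lines per Adipoq in both conditions. Elovl3 had 18.1 ± 5.87 and 13.1 ± 8.31 without stimulation and 38.4 ± 10.1 and 50.1 ± 20.3 after NE, vector first. Cidea had 21.5 ± 6.06 and 14.2 ± 2.57 without stimulation, with no overlap, and 21.3 ± 3.83 and 18.8 ± 4.40 after NE, with overlap.

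The regulators lay higher in tSema4B on this scale, as most genes did. Ppargc1a per Adipoq was 8.97-fold higher in tSema4B without stimulation and 6.45-fold higher after NE, Prdm16 2.17- and 4.05-fold, and Esrra 4.62- and 3.17-fold, with all 3 tSema4B libraries above the vector libraries. Ppargc1b was 2.67-fold higher without stimulation, and its groups overlapped after NE. In all, tSema4B lay above vector in 4 of the 8 genes without stimulation and in 3 after NE, a position it held in nearly all tested genes. Ucp1 and Cidea lay below without stimulation. These positions hold for Adipoq as the divisor. Per 1000 of the summed markers after NE, Elovl3 had 1.74 ± 0.41 in vector and 3.11 ± 1.12 in tSema4B and Ppargc1b 0.36 ± 0.11 and 0.67 ± 0.11, both without overlap, unlike their ratios to Adipoq.

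**Figure D3:**
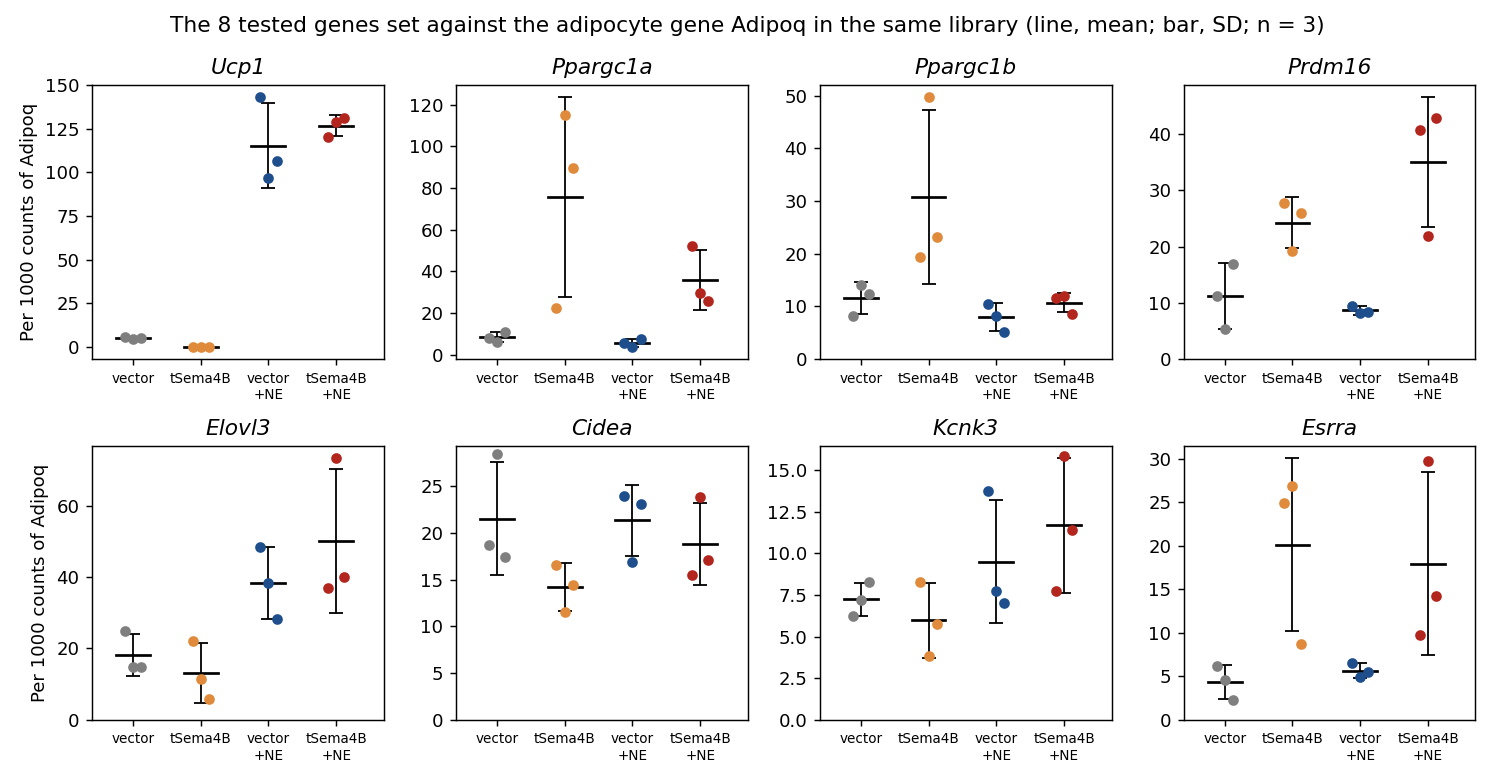
Each of the 8 tested genes per 1000 normalized counts of Adipoq in the same library (vertical axis, linear), by group. Points are libraries, lines are means and bars are SD (n = 3). Stimulated Ucp1 lies at 97.0 to 143 in vector NE and 120 to 131 in tSema4B NE, and Ppargc1a, Prdm16 and Esrra lie higher in both tSema4B groups than in vector.

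Genes that act before, beside or after these regulators were read from 7 lists. Of 13 genes of adrenergic input 12 were tested. In tSema4B without stimulation Adrb3, the main beta-adrenergic receptor of rodent adipocytes, was called lower (log2 fold change -3.20, SE 0.36, adjusted p = 1.19e-06, list median -0.10). After NE 1 gene of the list was called, again Adrb3 (-3.06, SE 0.36, adjusted p = 2.30e-06, list median -0.20). Adrb3 had 122 to 144 normalized counts in vector and 9.28 to 25.0 in tSema4B, and 67.2 to 101 and 7.51 to 11.9 after NE. NE against unstimulated gave 1 called gene in each line, the kinase Map2k6, at -1.27 (adjusted p = 0.0277) in vector and -1.24 (adjusted p = 0.0488) in tSema4B (list medians -0.12 and -0.14). The call in tSema4B was lost with edgeR and with each of 3 other scalings.

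Of 18 transcription factors of brown fat 15 were tested. Without stimulation 4 were called lower in tSema4B (list median -0.054), led by Ebf2, which helps to set brown fat identity (log2 fold change -2.87, SE 0.44, adjusted p = 6.56e-05), and Cebpa, a factor of adipocyte differentiation (-2.52, SE 0.24, adjusted p = 1.10e-07). After NE 3 were called lower (list median -0.34), again led by Ebf2 (-2.49, adjusted p = 0.000267) and Cebpa (-1.93, adjusted p = 4.49e-06). NE raised Cebpd (1.35, adjusted p = 5.17e-06) and Cebpb (1.22, adjusted p = 0.00809) in vector (list median -0.0019). In tSema4B NE called 0 of the 15 by limma, edgeR and DESeq2, with 5 at an unadjusted p under 0.05 and a list median of -0.22. Cebpd there had 0.92 (SE 0.16, adjusted p = 0.000685), short of the fold change that a call needs, and Cebpb 0.59 (adjusted p = 0.263). The interaction was not called for either (adjusted p = 0.535 for Cebpd and 0.651 for Cebpb by limma), so a difference between the lines in their NE response was not shown.

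All 20 coregulators that bind Prdm16, PGC-1 or nuclear receptors were tested, and 0 were called by limma, edgeR or DESeq2 in any of the 4 comparisons. At an unadjusted p under 0.05 there were 4 and 3 between the lines (unstimulated and after NE) and 2 and 1 with NE (vector and tSema4B). Their median log2 fold changes were 0.14, 0.13, -0.13 and -0.0051, and between the unstimulated lines their fold changes lay between -0.91 and 0.76.

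Mitochondrial targets of PGC-1 and the oestrogen-related receptors, 21 genes, were all tested, and 4 were called lower in tSema4B without stimulation and 3 after NE. With equal library totals the call of Gabpb1 after NE was lost. The list medians were -0.59 and -0.45, and 19 and 17 of the 21 had negative fold changes, while 49.9% and 49.0% of all tested genes had positive ones. Cycs, which encodes cytochrome c, had log2 fold changes of -1.47 (SE 0.36, adjusted p = 0.00688) and -1.22 (adjusted p = 0.0166). Pdk4, the kinase that shuts pyruvate dehydrogenase, had -1.33 (SE 0.11, adjusted p = 1.66e-08) and -1.39 (adjusted p = 7.69e-09). With NE 1 gene was called in each line, Sod2, the mitochondrial superoxide dismutase, at 1.02 in vector (adjusted p = 2.44e-06) and 1.08 in tSema4B (adjusted p = 1.45e-06), with list medians of 0.019 and 0.23. In vector the Sod2 call was lost when libraries were given equal totals across all genes or normalized by quantiles.

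Of 23 other brown-selective genes 10 were tested, and 5 were called lower in tSema4B without stimulation and 4 after NE, with medians of -1.70 and -1.12. Low genes could pass the filter only where they were high, as for the 10 genes themselves. Cox7a1, a cytochrome c oxidase subunit, had log2 fold changes of -3.66 (SE 0.70, adjusted p = 0.000907) and -4.04 (adjusted p = 0.00026). Clstn3 had -3.56 (adjusted p = 2.72e-08) and -1.68 (adjusted p = 0.000462), and Plin5, a lipid droplet protein, -3.44 (adjusted p = 0.0018) and -2.67 (adjusted p = 0.00919), without stimulation and after NE. The unstimulated call of Mpzl2 (-2.35, adjusted p = 0.0307) was lost with edgeR, DESeq2 and quantile normalization, which left 4 genes. NE raised Gk, glycerol kinase, in vector (1.64, adjusted p = 1.90e-06, list median 0.25), where edgeR and DESeq2 called 2 genes, and 3 genes in tSema4B (list median 0.82) led by Clstn3 (2.88, adjusted p = 2.06e-06) and Mpzl2 (2.76, adjusted p = 0.0211), the latter not called by DESeq2.

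Thyroid hormone handling, the pathway of Dio2, had 6 of 9 genes tested. Thrsp, a thyroid hormone-responsive gene of lipogenesis, was the single called gene in tSema4B, lower without stimulation (-2.02, SE 0.31, adjusted p = 7.61e-05) and after NE (-2.26, adjusted p = 1.61e-05), with list medians of -0.18 and 0.21. NE called 0 of the 6 in either line by limma, edgeR and DESeq2, with 3 and 2 at an unadjusted p under 0.05 and medians of -0.64 and -0.14.

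Of 17 paralogues of the 10 genes 9 were tested. Cidec, which like Cidea coats lipid droplets, was called lower in tSema4B without stimulation (-2.74, SE 0.21, adjusted p = 4.14e-09) and after NE (-1.56, adjusted p = 1.31e-05), and higher with NE in tSema4B (1.16, adjusted p = 0.00116). Mecom, a relative of Prdm16, was called higher in tSema4B after NE (1.16, adjusted p = 0.0358) and lower with NE in vector (-1.20, adjusted p = 0.047, lost under quantile normalization). Pprc1, the third PGC-1 family member, was called higher with NE in vector (1.01, adjusted p = 0.0108), a call that was lost when libraries were scaled to the same total. The remaining 6 were not called in these comparisons. Ucp2 had -0.37 and -0.42 in tSema4B, Elovl1 -0.24 and -0.18, Elovl4 0.41 and -0.10, Elovl5 0.033 and 0.51, Elovl6 0.41 and -0.12, and Elovl7 -0.24 and 1.22, without stimulation and after NE. The list medians were 0.033 and -0.12 between the lines and -0.025 and 0.0025 with NE in vector and tSema4B. Among the 8 paralogues that were not tested, Dio1, Kcnk9 and Esrrb had no read, Dio3 and Kcnk15 had 1 read each, Ucp3 had at most 3 and Cideb at most 2 reads in a library, and Elovl2 reached 11 reads in a vector NE library.

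**Figure D4:**
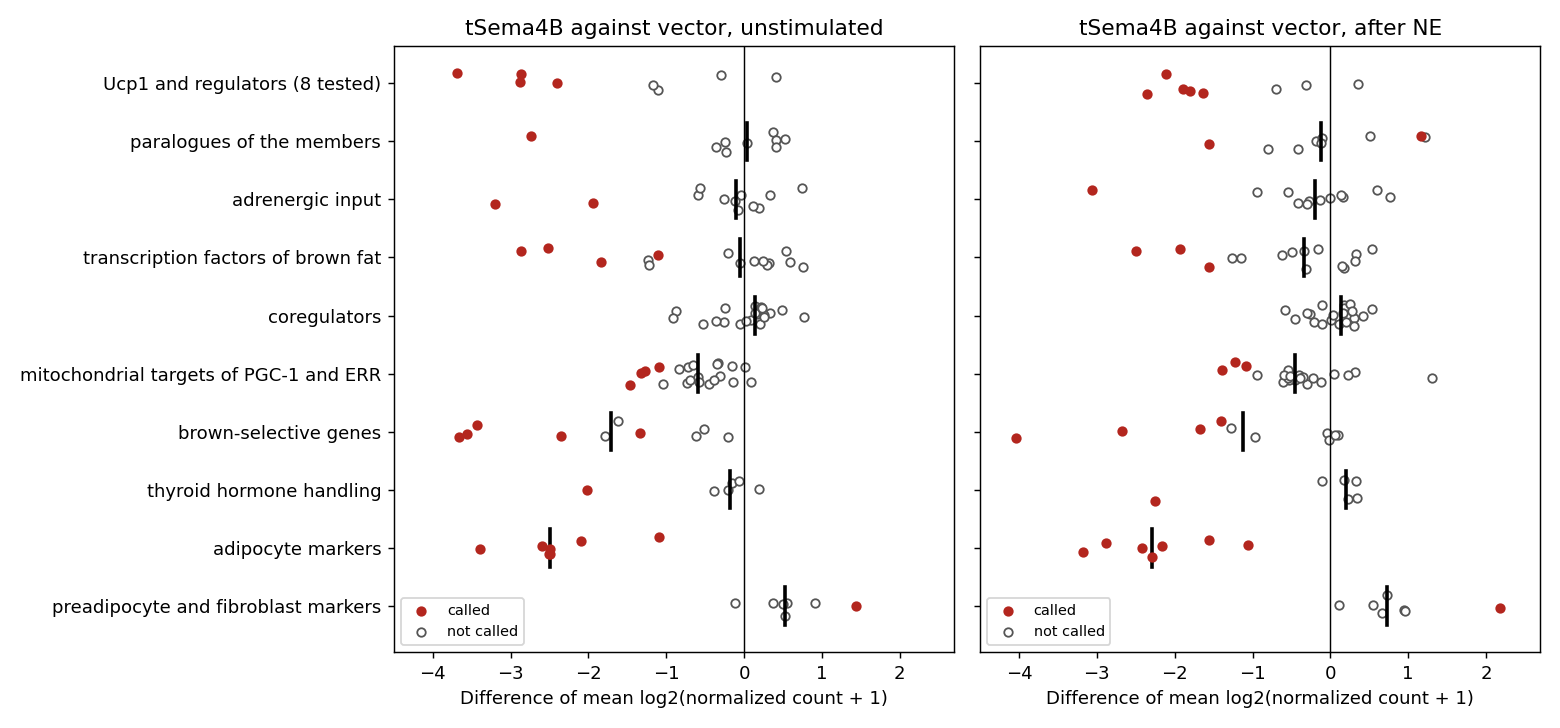
Difference in mean log2(normalized count + 1) between tSema4B and vector (horizontal axis) for the tested genes of each list, unstimulated on the left and after NE on the right. Points are genes, filled where called, and black bars are list medians, left out for Ucp1 and its regulators. The adipocyte markers have medians of -2.49 and -2.29, the coregulators 0.14 and 0.13.

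The tested genes whose 4 group means were most like those of Ucp1 were sought by the root mean square difference of centred log2 values over the 4 groups. They were Krt13 (0.94), Prg4 (0.97), Fga (1.17), Ramp3 (1.24) and Olr1 (1.33). Prg4 had means of 14.0 ± 6.89 in vector, 2.92 ± 2.54 in tSema4B, 181 ± 63.3 in vector NE and 35.6 ± 10.3 in tSema4B NE. Krt13 had 4.55 ± 2.54, 0, 45.0 ± 4.08 and 37.4 ± 15.9 in the same order. With a pseudocount of 10 these 2 genes stayed among the 5 closest and the others did not. For Ppargc1a the closest were Atp7a, Poll, Hs1bp3, Prnp and Ptpn13, at 0.018 to 0.032, and 0 of these 5 stayed with a pseudocount of 10. The groups of Ppargc1a overlapped in all 4 comparisons, so this order rests on differences within its spread.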

How the data were processed

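RNAseq libraries were made by SMART-Seq2 and Nextera XT and sequenced as single-end reads. The authors aligned reads with STAR 2.7.9a (mm10, GRCm38.p4 per the submitters' processing notes), counted them per gene with HTSeq and deposited the signal used here, a read count per gene divided by the DESeq2 size factor of the library. The annotation, strand setting and treatment of multi-mapped reads are not given in the sources used here. Dividing each library by the worth of 1 read gave whole numbers for 100% of the values above 0 (tolerance 0.01), so whole reads were recovered. Depth was 2000780 to 5409583 reads per library, and 3 reads were taken as the floor.

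The 11998 genes that reached 10 normalized counts in 3 or more of the 12 libraries were tested in R 4.3.3 with limma 3.58.1 (trend, two-sided, Benjamini-Hochberg) on log2(normalized count + 1), with the 4 groups in a single model. A call needed an adjusted p not above 0.05 and a change of 1 log2 unit or more (for the interaction, the adjusted p alone). Ratios of summed reads have exact 95% conditional intervals that cover counting error only. The fit was tested on simulated data.

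The 10 genes, the lists and the tests were chosen with earlier results of these data known. Named were the 10 genes, Sema4b, all paralogues, up to 2 called genes per direction of each other list, and the 5 genes most like Ucp1 and Ppargc1a. The cell type markers and Zic1, with the factors named beside it, fall outside this rule. A result for 1 gene of the adrenergic list is not reported here. Alternatives were pseudocounts of 0.5 and 10, no filter or a filter at 50, other scalings, edgeR 4.0.16 and DESeq2 1.42.0 on recovered reads, only the 6 libraries compared, a replicate block, the adjusted p alone and each library left out. Thinning reads to the shallowest library and ratios to Adipoq were added after the data were seen. Gene positions and exon lengths came from GENCODE on GRCm38, promoters from RefSeq on GRCm38.p6.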

Additional observations from a re-analysis of the deposited data

How the results depend on the processing

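Over 40 values (8 genes, 5 contrasts) and 735 alternatives, 699 kept direction and side of the threshold. Genes called lower in tSema4B after NE were 5, but 3 with a filter at 50, where fewer were tested, and 3 without a filter. Leaving out a library gave 3 to 5 there, 4 to 5 without stimulation, 1 for NE in vector, 2 in tSema4B and 0 for the interaction. NE in vector called 2 (with Elovl3) by edgeR, DESeq2 and the fit of 6 libraries, and that fit called 1 in tSema4B. Ppargc1b after NE had -0.91 with a pseudocount of 10 and an adjusted p of 0.0509 without a filter, where that of Kcnk3 was 0.0561 (0.0679 after thinning, added after the data were seen).

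Reversals of direction were confined to values that were not called. The Ucp1 interaction was -0.83 with a pseudocount of 10. The Ppargc1a interaction was 0.015 with the same total over all genes, and thinning gave -0.11 for Ppargc1a between the stimulated lines and -0.33 for Esrra with NE in tSema4B. Cidea with NE in vector was 0.037 by quantile normalization and 0.15 after thinning. Leaving out a library gave -0.16 to 0.14 for that value, -0.38 to 0.27 for Esrra with NE in tSema4B, -0.68 to 0.10 for Esrra between the unstimulated lines, -0.75 to 0.33 for the Ppargc1a interaction, -0.010 to 0.60 for Ppargc1a between the stimulated lines, and -0.74 to 0.11 and -0.51 to 0.012 for Prdm16 with NE in vector and between the stimulated lines. The cause was not tested.

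Same-numbered libraries had correlations of -0.047 to 0.028 over 18 pairs, so no pairing by number was seen across all tested genes. A pairing that touches few genes would not show in this measure. For Esrrg the second library of each group held the most reads. With a replicate block the counts were 4, 5, 1, 2 and 0, as without it. Over all genes edgeR called 133 higher and 318 lower in unstimulated tSema4B (main 133 and 325), and 4 for the interaction, where limma called 3, DESeq2 29 higher and 58 lower, and limma without a filter 0. With the adjusted p alone the counts higher and lower were 677 and 887 between the unstimulated lines, 1175 and 1342 after NE, 818 and 574 for NE in vector and 441 and 309 for NE in tSema4B. The 6 libraries alone gave 107 and 50 for NE in tSema4B (157 and 91 with all 12). In unstimulated tSema4B Ucp1, Elovl3, Cidea and Kcnk3 had 0 to 8 reads per library, which limits the precision of their differences.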
